A study of Mus musculus and Homo sapiens with 41 samples.

Results

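Loss of TET2 in mouse haematopoietic stem and progenitor cells (HSPCs) was examined by comparing 3 H2AK119ub CUT&Tag libraries of Tet2 KO cells with 3 libraries of WT cells, chosen by their labels among the 41 libraries of the series. All 6 libraries came from cultured bone marrow cells that were lineage-negative and c-Kit-positive (LK cells), taken from mice aged 6 to 8 weeks and grown for 7 days with stem cell factor, IL-3, thrombopoietin and GM-CSF. The study reports that Tet2 loss prolonged the maintenance of stem and progenitor cells in culture. Cell make-up may therefore differ by genotype, and such a difference cannot be told apart from a change of the mark within cells. Both groups carried a control short hairpin RNA (shNC), brought in by electroporation. The KO mice were germline Tet2-/- animals that had been backcrossed to C57BL/6, the WT mice were C57BL/6, and both sexes were used. The study set out to learn how TET2, known as a DNA dioxygenase and studied here as an oxidase of RNA 5-methylcytosine, shapes the chromatin of these cells. The labels do not say whether replicates came from separate mice, so the p-values below measure the spread between these libraries, which may be technical. Each library was available as its list of broad peaks, with no read counts, so depth is unknown, and 0 below means that no peak was called, which unmarked and thinly read sequence would both give.

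H2AK119ub is histone H2A carrying a single ubiquitin, placed by the RING1 ligases of Polycomb repressive complex 1 and removed by BAP1, the catalytic subunit of PR-DUB. The mark is linked to compact, repressed chromatin and is best known from CpG islands of silent developmental genes. MBD6 is a subunit of PR-DUB, and TET2 is among the genes most often mutated in clonal haematopoiesis and myeloid leukaemia, where its loss favours self-renewal of HSPCs.

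Less of the genome was listed as carrying H2AK119ub in KO than in WT HSPCs, and a smaller share of what was listed in KO cells lay at promoters and a larger share in repeats. The WT lists covered 1.89, 2.24 and 1.91 Mb in 3979, 4629 and 4046 peaks, and the KO lists 0.648, 0.681 and 0.664 Mb in 1399, 1451 and 1398 peaks. No KO library reached the level of any WT library, and the means differed 3.03-fold (2.01 ± 0.194 Mb against 0.664 ± 0.0165 Mb, SD, n = 3 each; exact two-sided permutation p = 0.1, the smallest that 3 against 3 libraries allow). The same p, and an adjusted p of 0.1, was obtained for all 18 summary measures of the lists, each of which separated the groups without overlap. The number of peaks on the added Drosophila chromatin moved the other way, with 48, 55 and 56 spike-in peaks in WT and 231, 226 and 205 in KO libraries. The part of the spike-in difference in the covered length was not tested, and fewer marked cells and less mark per cell cannot be told apart in these bulk libraries. KO peaks were narrower (median 393 ± 5.80 against 420 ± 8.00 bp) and stood higher over their own local background (median fold enrichment 5.53 ± 0.0198 against 4.46 ± 0.0655). With the same number of highest-ranked peaks from every library the median fold enrichment was 5.55 ± 0.0351 in KO and 5.55 ± 0.0871 in WT libraries. That number takes nearly the whole KO lists but only the stronger WT peaks. The sets were not of equal strength by the caller's −log10 q, which was at least 5 for 96.8 ± 3.30% of these WT peaks and 46.3 ± 1.70% of these KO peaks.

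The listed sequence also had another make-up in KO cells. Bases within 1 kb of a protein-coding transcription start site (TSS) made up 45.5%, 46.6% and 47.3% of the covered length in WT and 21.0%, 24.2% and 24.6% in KO libraries. Intergenic sequence made up 23.6 ± 0.811% in WT and 41.9 ± 1.26% in KO libraries, introns 24.9 ± 0.568% and 33.1 ± 1.24%, and exons 4.98 ± 0.146% and 1.76 ± 0.378%. Repeat-masked sequence, which is interspersed or simple repeats in the reference, took 18.4 ± 0.572% of the covered bases in WT and 43.9 ± 2.51% in KO libraries. CpG dinucleotides, the sites of DNA methylation, numbered 47.8 ± 1.46 per kb in WT and 28.2 ± 1.60 per kb in KO libraries. In absolute length, unmasked covered sequence was 1.65 ± 0.164 Mb in WT and 0.373 ± 0.0244 Mb in KO cells, a ratio of 4.41, whereas masked sequence was 0.370 ± 0.0324 Mb and 0.291 ± 0.0116 Mb, a ratio of 1.27. With the same number of highest-ranked peaks taken from every library (1398), masked length turned round, at 0.193 ± 0.00837 Mb in WT and 0.288 ± 0.0131 Mb in KO libraries, and the promoter share was 47.2 ± 0.303% in WT against 23.2 ± 1.96% in KO libraries. As above, this sets nearly whole KO lists beside the stronger WT peaks.

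**Figure D1:**
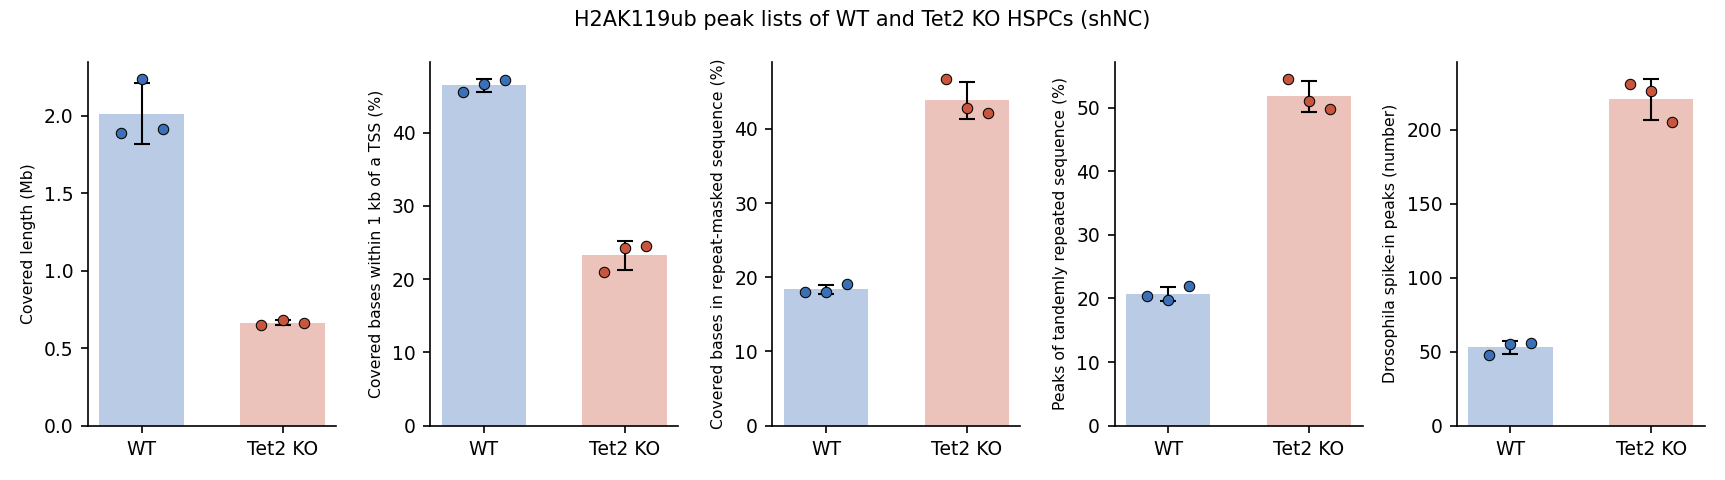
Covered length (Mb), share of covered bases within 1 kb of a TSS (%), share in repeat-masked sequence (%), share of peaks made of tandemly repeated sequence (%) and number of Drosophila spike-in peaks, one point per library, with bars at group means and error bars of 1 SD (n = 3). WT and KO libraries do not overlap in any panel, with covered length at 2.01 against 0.664 Mb and spike-in peaks at 53 against 221.

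Around start sites the KO libraries lay below the WT libraries. The share of the 21911 protein-coding TSSs covered was highest just upstream of the TSS, at 6.36%, 7.79% and 6.95% of sites in the 3 WT libraries in the bin centred 50 bp upstream. In the same bin the KO libraries covered 1.19%, 1.34% and 1.38% of sites. In the bin centred 4950 bp upstream, 0.106% to 0.119% of sites were covered in WT and 0.0193% to 0.0299% in KO libraries, so the groups were apart there as well.

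**Figure D2:**
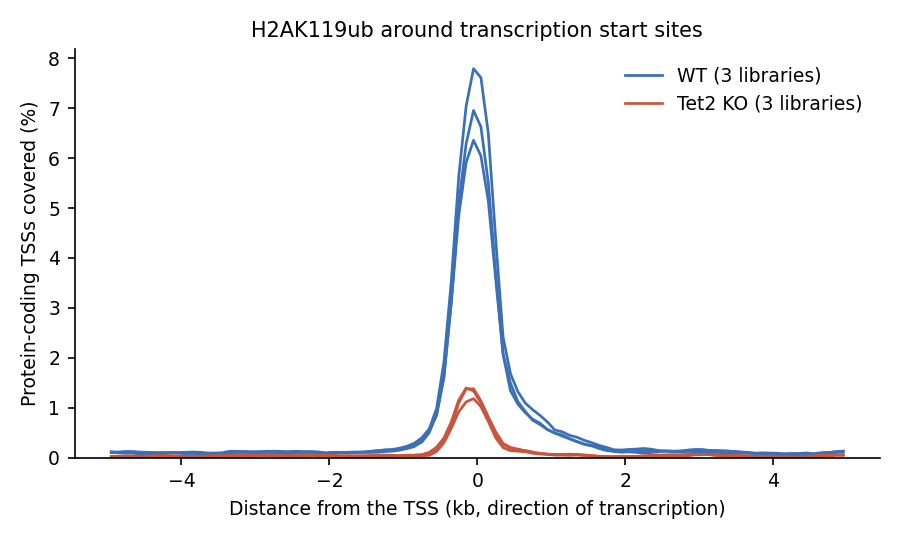
Share of protein-coding TSSs covered by a peak (%, vertical axis) against the distance from the TSS (kb, horizontal axis, in the direction of transcription), one line per library. All 6 lines peak near the TSS, and 50 bp upstream of it the WT lines stand at 6.36% to 7.79% and the KO lines at 1.19% to 1.38%.

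Over all peaks, the ratio of WT to KO peak numbers fell with distance from the nearest TSS. For peaks outside tandem repeats, split off below, it was 5.62 within 1 kb and 5.66 at 1 to 50 kb. WT libraries held 1901, 2286 and 2050 peaks within 1 kb of a TSS and KO libraries 340, 404 and 399, a 5.46-fold difference of the means. The ratio was 3.74 at 1 to 5 kb, 2.62 at 5 to 20 kb, 2.20 at 20 to 50 kb and 1.68 at 50 to 200 kb. Beyond 200 kb the lists were of like size, with 131 to 154 peaks in WT and 141 to 161 in KO libraries (ratio 0.917). The excess of distal WT peaks depended on the peaks taken: beyond 50 kb there were 680 ± 60.5 in WT and 474 ± 23.1 in KO libraries, 254 ± 19.6 and 257 ± 13.6 at −log10 q of at least 5, and 252 ± 6.43 and 469 ± 26.4 with the same number of highest-ranked peaks. By chromosome, WT over KO covered length was largest on chromosomes 11 (4.38-fold), 10 (3.92-fold) and 19 (3.76-fold), which hold 13.4, 7.81 and 11.7 protein-coding genes per Mb. It was smallest on the X chromosome (1.69-fold) and on the Y chromosome (2.27 ± 0.427 kb against 2.28 ± 0.844 kb), and the groups overlapped on the Y chromosome alone.

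The peaks were split by whether they lay in tandem repeats, short units copied head to tail. A peak was counted as tandemly repeated where at least 50% of its overlapping 12-base words occurred more than once within it, a property of 0.544% of 400-bp tiles of chromosome 19. Such peaks numbered 810, 913 and 886 in WT and 763, 741 and 696 in KO libraries, which is 20.7 ± 1.12% of WT peaks and 51.8 ± 2.46% of KO peaks. At 1 to 50 kb from a TSS tandem peaks numbered 476, 526 and 523 in WT and 395, 404 and 380 in KO libraries, with the groups apart (ratio 1.29, exact permutation p = 0.1, adjusted p = 0.15 over 6 comparisons). Beyond 50 kb tandem peaks numbered 348 ± 26.8 in WT and 327 ± 22.5 in KO libraries, with overlapping groups (exact permutation p = 0.4, adjusted p = 0.48 over 6 comparisons). Within 1 kb they were few, at 13.7 ± 2.31 and 13.7 ± 3.79. Peaks of other sequence were 5.62-fold more numerous in WT within 1 kb of a TSS (2065 ± 194 against 367 ± 39.3), 5.66-fold at 1 to 50 kb (950 ± 114 against 168 ± 7.81) and 2.26-fold beyond 50 kb (333 ± 50.3 against 147 ± 5.51), each with exact permutation p = 0.1 and adjusted p = 0.15. Peaks holding 2 head-to-tail copies of the telomere unit TTAGGG on either strand, found in 0.0207% of 240-bp tiles of chromosome 19, numbered 68 to 77 in WT and 73 to 76 in KO libraries. AT-rich peaks, with at most 30% G and C, numbered 17 to 20 in WT and 31 to 35 in KO libraries.

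**Figure D3:**
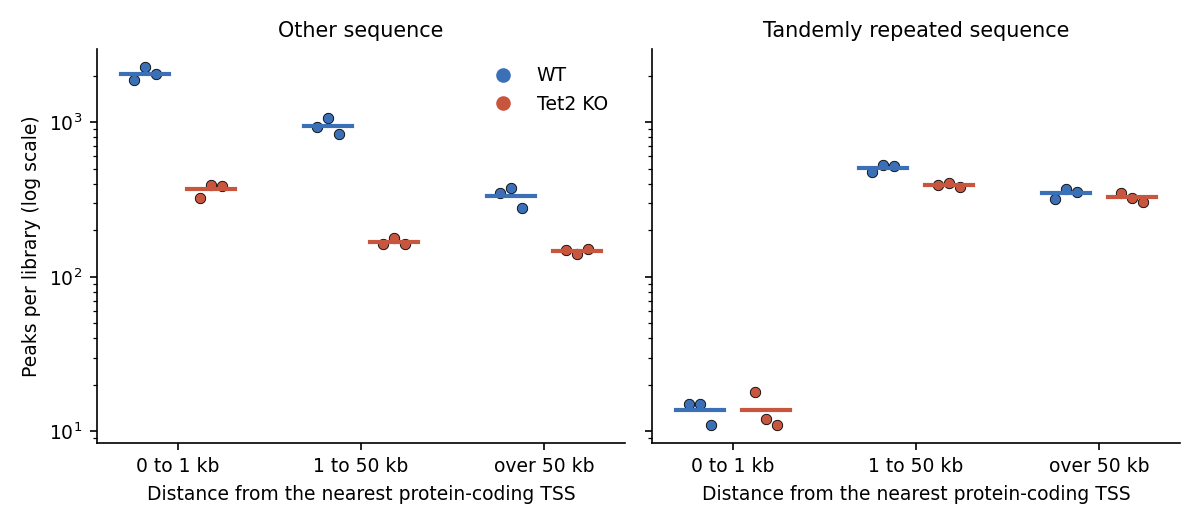
Number of peaks per library (vertical axis, log scale) by distance from the nearest protein-coding TSS (horizontal axis), for peaks of other sequence (left) and of tandemly repeated sequence (right), with one point per library and lines for the mean (n = 3). WT and KO libraries lie apart at every distance on the left (2065 against 367 within 1 kb), and on the right they lie apart at 1 to 50 kb (508 against 393) and overlap within 1 kb and beyond 50 kb.

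Sequence marked in KO cells was largely a subset of that marked in WT cells. Sequence covered in at least 2 of 3 libraries came to 1644 kb in WT and 520.1 kb in KO cells, and the 417 kb in both sets made up 25.4% of the WT set and 80.2% of the KO set. The 1227 kb found in the WT set alone was 55.1% promoter sequence and 10.8% masked, with 56.0 CpGs per kb. The 103 kb found in the KO set alone was 2.02% promoter sequence and 61.7% masked. Of the KO set, 69.9 kb in 412 stretches was in no WT library at all, and 0.445% of that was promoter sequence. Replicates of one group shared 0.382 to 0.389 (WT) and 0.369 to 0.389 (KO) of their joint covered bases, and a WT and a KO library shared 0.180 to 0.220. Lists of unequal length cannot share much of their joint bases, so the last range does not show that KO libraries resembled each other more than WT. Of the bases of a KO library, 63.6% to 70.8% lay in a given WT library and 52.6% to 56.8% in another KO library. The greater length of the WT lists raises the first share.

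The strongest WT peaks were those that stayed listed in KO cells. Within each WT library, peaks were ranked by the caller's −log10 q and split into 5 quintiles. In the strongest quintile 62.2% to 65.2% of peaks were overlapped in at least 2 KO libraries, and in the weakest 1.95% to 4.45%. Tandem peaks were kept more often than other peaks in each quintile. Strength was not matched within a quintile, and 73 to 75 of the 100 strongest peaks of a WT library were tandem. Sequence class and strength are therefore not fully separated here. In the strongest quintile 89.2% to 91.4% of tandem peaks and 49.0% to 51.5% of other peaks were overlapped, and in the weakest 9.49% to 17.5% and 0.610% to 1.65%.

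**Figure D4:**
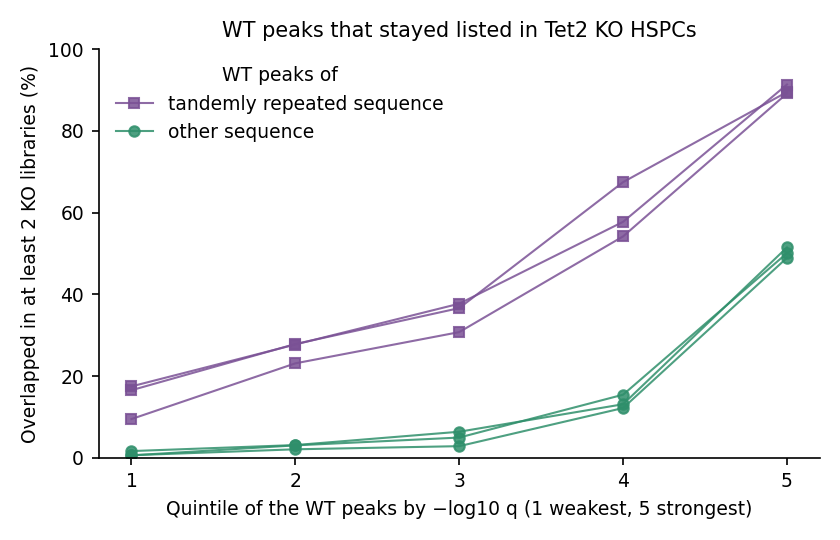
Share of WT peaks overlapped in at least 2 of the 3 KO libraries (%, vertical axis) by quintile of −log10 q within each WT library (horizontal axis, 5 strongest), one line per WT library for tandem and for other peaks. Both lines climb with strength, to 89.2% to 91.4% for tandem and 49.0% to 51.5% for other peaks.

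Gene by gene, each protein-coding gene was given the 10-kb window centred on its TSS, and the covered length in that window (kb) was compared between KO and WT with limma. The 4242 windows covered in at least 3 of the 9 HSPC libraries were tested, the other 3 being KO cells with shMbd6, which share the model's estimate of spread. The shMbd6 libraries count towards this filter, so a window could be tested on their peaks alone, which lowers the share called. In KO cells 964 windows were lower (22.7% of those tested) and 1 was higher (0.0236%) at an adjusted p under 0.05, and the groups were apart with KO below WT in 28.6% of tested windows and with KO above WT in 0.0943%. Of the 964, 32 were listed in all 3 KO libraries, and the others were at 0 in 1 or more. With the filter and the model limited to the 6 shNC libraries, 1664 windows were tested, of which 1081 were lower and 3 higher. With the same number of highest-ranked peaks from every library, 63 windows were lower and 10 higher, and among windows covered in at least 1 library of each group 249 were lower and 0 higher. With each library scaled to the same covered length, which asks how the mark was shared out within a library, 760 windows were lower and 194 higher, and 28 of those 194 were lower without scaling. Scaling raises every window still listed in the shorter KO lists relative to WT, and all 194 were listed in all 3 KO libraries. A higher value after scaling thus does not by itself show a gain in covered length. Of the 194, 1 was also higher without scaling. Where a group was at 0 in all its libraries it added no spread to the model, so p-values of such windows can be too small.

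A window was listed in at least 2 libraries for 2618 genes in WT and 454 genes in KO cells, and 442 of those 454 were also in the WT set. There were 765 windows listed in all 3 WT and no KO library, and 1 in all 3 KO and no WT library. CpG-rich promoters (at least 55% G and C and a CpG ratio of at least 0.6 over the 1000 bp around the TSS) were listed in 21.9% of cases in WT and 3.98% in KO cells, and other promoters in 5.76% and 0.882%. Among tested windows, 686 of 2901 CpG-rich and 278 of 1341 other promoters were lower in KO cells.

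The 10 lower windows with the largest differences, chosen to lie at least 20 kb apart and to have groups that did not overlap, held genes of unrelated roles. Abhd11, a mitochondrial hydrolase (chr5:135004152-135014151), carried 1.12, 1.301 and 1.11 kb in WT and was listed at 0 in all KO libraries (difference −1.18 ± 0.203 kb, SE; limma adjusted p = 0.00329). Plcb1, a phospholipase C that acts below G-protein-coupled receptors, carried 1.01, 0.897 and 0.933 kb in WT and 0 in KO libraries (−0.948 ± 0.0898 kb; limma adjusted p = 0.00110). Pparg, the nuclear receptor that drives fat cell formation, carried 0.987, 0.704 and 0.821 kb in WT and 0 in KO libraries (limma adjusted p = 0.00110). Each of these windows was at 0 in the KO group, so no fold can be given. The list goes on with Myh10, a non-muscle myosin, Zfp788, a zinc finger gene, the WNT pathway genes Fzd1 and Wnt16, and Comtd1, all at 0 in KO libraries, with WT means from 0.832 to 1.11 kb. Spata5 and Fbrs were listed in 1 KO library each (0.357 and 0.295 kb) beside WT means of 0.972 and 0.913 kb.

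Promoter sequence from 4 of the lower windows is shown because it was covered in every WT library (at least 177 of its 200 bases) and in no KO library. Each stretch is the 200 bases upstream of the annotated TSS, read 5′ to 3′ on the gene's strand from the GRCm38 (mm10) reference, overlaps no annotated exon, and has CG in capitals.
Abhd11, chr5:135008952-135009151, plus strand: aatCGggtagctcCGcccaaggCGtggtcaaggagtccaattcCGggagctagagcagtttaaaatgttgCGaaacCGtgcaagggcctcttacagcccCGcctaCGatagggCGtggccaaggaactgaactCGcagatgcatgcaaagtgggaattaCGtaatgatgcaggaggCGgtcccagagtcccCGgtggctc
Zfp788, chr7:41633003-41633202, plus strand: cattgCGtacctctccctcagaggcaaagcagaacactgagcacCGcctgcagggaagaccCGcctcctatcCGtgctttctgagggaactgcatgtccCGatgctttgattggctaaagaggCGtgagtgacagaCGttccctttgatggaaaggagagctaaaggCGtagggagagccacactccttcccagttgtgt
Cdk1, chr10:69352939-69353138, minus strand: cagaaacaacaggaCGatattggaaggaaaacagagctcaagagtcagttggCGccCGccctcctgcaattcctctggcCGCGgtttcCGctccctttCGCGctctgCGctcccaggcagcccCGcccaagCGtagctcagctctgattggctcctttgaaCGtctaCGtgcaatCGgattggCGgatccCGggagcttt
Snrpa, chr7:27196272-27196471, minus strand: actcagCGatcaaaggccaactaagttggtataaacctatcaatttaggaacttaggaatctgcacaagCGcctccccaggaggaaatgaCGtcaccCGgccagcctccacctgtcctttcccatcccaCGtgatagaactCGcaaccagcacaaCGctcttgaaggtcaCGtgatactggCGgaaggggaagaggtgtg
They hold 13, 8, 16 and 9 CGs. Over all 21911 protein-coding genes 90.4% of such 200-base stretches hold at least 1 CG, with a median of 7, and the median was 14 both over windows listed in at least 2 WT libraries and over the 964 lower windows.

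The gene lists were read one by one for what each held. In the cell cycle and DNA replication list 4 of 24 tested members were lower and 0 higher (median difference −0.19 kb beside −0.21 kb over all tested windows). The 4 were Cdk1, the mitotic kinase (0.551, 0.487 and 0.426 kb in WT), Wee1, the kinase that restrains it (0.443, 0.476 and 0.575 kb), Pcna, the sliding clamp (0.511, 0.469 and 0.624 kb), and Mcm4, a helicase subunit with Prkdc in the same window (0.488, 0.569 and 0.292 kb). Each was listed at 0 in every KO library. Windows of the list were listed in at least 2 WT libraries for 14 of 45 genes and in at least 2 KO libraries for 3 of 45. After scaling to equal covered length 4 members were lower and 2 higher (Gins2 and Pold1, both replication factors, at 0.510 to 0.528 and 0.481 to 0.521 kb in WT and 0.356 to 0.415 and 0.294 to 0.414 kb in KO libraries).

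In the DNA repair list 3 of 11 tested members were lower: Msh6 of mismatch repair, Lig1, the replicative ligase, and Fanca of the Fanconi complex, each at 0 in KO libraries with WT means of 0.446, 0.504 and 0.3497 kb. For splicing and RNA binding 4 of 16 were lower, the small nuclear ribonucleoprotein genes Snrpa, Snrpd2 and Snrnp70 and the RNA-binding Hnrnpa1, which shares its window with Cbx5. Snrpa, a U1 component, varied little in WT, at 0.571, 0.556 and 0.544 kb in WT and 0 in KO libraries (−0.557 ± 0.0474 kb; limma adjusted p = 0.00109). Ribosomal protein genes gave 3 of 18, among them Rplp0 (0.498 ± 0.173 kb in WT and 0 in KO) and Rpl13a (0.372 ± 0.0280 kb and 0). The proteasome and protein folding list gave 2 of 12, the core particle genes Psma4 and Psma5, and mitochondrial respiration and translation gave 0 of 7 with a median of −0.14 kb.

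Apoptosis genes had 4 lower of 9 tested, with a median difference of −0.44 kb. Cycs, which encodes cytochrome c, carried 0.596, 0.599 and 0.706 kb in WT and 0 in KO libraries (limma adjusted p = 0.00110), and Casp9, an initiator caspase, carried 0.447 ± 0.0896 kb in WT and 0 in KO. Bcl2l1, which encodes BCL-XL, was uneven in WT (0.962, 0.897 and 0.303 kb) and passed narrowly (limma adjusted p = 0.0481). In the WNT list 4 of 11 were lower, the receptor Fzd1, the ligand Wnt16, and Axin1 and Gsk3b of the destruction complex. The same list held the only higher window, Mcc, a tumour suppressor that dampens WNT signalling.

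Of 9 HSPC regulators tested 3 were lower. Of the 42 in the list 33 were at 0 in all 6 libraries, Gata2 and Runx1 among them, a share close to that of all windows (17285 of 21911). Id2 and Id3, inhibitors of helix-loop-helix factors, carried 0.494, 0.527 and 0.522 kb and 0.448, 0.441 and 0.312 kb in WT, and Erg, an ETS factor of stem cells, 0.299, 0.454 and 0.354 kb, all with 0 in KO libraries (limma adjusted p = 0.00113, 0.00269 and 0.0247). Kit, the receptor by which the cells were selected, was listed in 1 WT library alone (0.304 kb; limma adjusted p = 0.438). Of the defining HSPC markers, only Kit and Flt3 had any peak, and of 16 markers of lymphoid, myeloid, erythroid, mast and stromal cells none did, so the peak lists say little of cell identity. Granulocyte and monocyte genes gave 1 lower of 6 tested, Fcgr3, a low-affinity Fc receptor, at 1.31, 1.73 and 1.77 kb in WT and 0.996, 0.948 and 0.849 kb in KO libraries (limma adjusted p = 0.00704). Scaled to equal covered length, which raises windows still listed in KO, Fcgr3 was higher in KO cells (scaled difference 1.296 kb, limma adjusted p = 0.000961). Its covered length itself was lower in KO cells. The 14 mast cell and 25 lymphoid genes had no window that could be tested, and 0 of 7 erythroid and megakaryocyte genes passed. Of the stromal and endothelial list 2 of 4 were lower, Pdgfra (0.482 ± 0.0479 kb) and Cav1 (0.721 ± 0.182 kb), both 0 in KO.

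Several signalling genes passed narrowly. In the list of NF-kB, cytokine and NOD-like signalling 4 of 15 were lower: Stat3 (0.571 ± 0.157 to 0.122 ± 0.212 kb), Stat5a (0.314 ± 0.0203 kb to 0), the adaptor Myd88 (0.430 ± 0.0764 to 0.0980 ± 0.170 kb) and the inhibitor Nfkbib (0.509 ± 0.0397 to 0.137 ± 0.238 kb). Their limma adjusted p-values lay between 0.0224 and 0.0492, and after scaling 1 of 15 was lower and 2 higher. Socs3, which restrains cytokine receptors, was listed in 1 WT library alone (0.289 kb) and Nfkbia, the NF-kB inhibitor, in none. Both are genes that the study itself singled out, from RNA sequencing and from H2AK119ub and accessibility signal around them. That signal is another measure than peaks called within a TSS window, so the 2 are not compared here. Of osteoclast differentiation genes 2 of 8 were lower, Pik3r1, the regulatory subunit of PI3-kinase (0.678 ± 0.0837 kb to 0), and the interferon receptor Ifngr1 (0.669 ± 0.0800 to 0.271 ± 0.234 kb).

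Genes of the machinery that places and removes the mark were looked at next. PRC1 and PRC2 subunits were listed in at least 2 WT libraries for 10.8% of genes and PR-DUB genes for 18.2%, beside 11.9% of all windows. Among PRC1 and PRC2 subunits 2 of 9 tested were lower, Ezh2, the H3K27 methyltransferase (0.342, 0.287 and 0.298 kb in WT, 0 in KO; limma adjusted p = 0.00223), and the histone chaperone Rbbp4 (0.706 ± 0.0182 to 0.134 ± 0.232 kb). Of PR-DUB genes 1 of 3 was lower, Mbd6, whose window also holds Ddit3, at 0.425, 0.324 and 0.493 kb in WT and 0 in KO libraries (limma adjusted p = 0.00223), while Bap1 was listed at 0 in all 6. Among RNA 5-methylcytosine genes 1 of 5 was lower, Ybx1, a reader of the modification (0.357 ± 0.0471 kb to 0), and Nsun2, a writer, was listed at 0. The window of Tet2 itself was listed at 0 in all 6 libraries, so the peaks give no check of the genotype. Chromatin modifiers gave 4 of 12 (Kdm6a, Kdm5b, Setd2 and Kdm4a, enzymes that remove or place histone methyl groups) and DNA methylation genes 2 of 5 (Mbd1 and Mbd3, methyl-CpG-binding domain proteins). Kdm4a, Mbd1 and Mbd3 passed narrowly (limma adjusted p = 0.0221, 0.0319 and 0.0355). Their calls were lost in 7 of 15, 7 of 12 and 9 of 15 alternative settings.

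Classic Polycomb targets were seldom listed. Of 39 HOX genes 37 were listed at 0 in all 6 libraries, Hoxa9 among them, and so were 60 of 71 other developmental transcription factors and 53 of 56 clustered protocadherins, beside 17285 of all 21911 windows. Developmental factors had 1 lower of 8 tested, Irx5 (0.531 ± 0.0166 to 0.142 ± 0.245 kb), HOX genes 0 of 2 and clustered histone genes 0 of 8. In untransfected WT mESCs, whose lists cover more of the genome (13.7 ± 3.55 Mb), the same counts of windows listed in at least 2 libraries were 34 of 39 HOX genes, 64 of 71 developmental factors and 54 of 56 protocadherins. In WT HSPCs they were 1, 7 and 0. Over all windows 55.7% were so listed in WT mESCs and 11.9% in WT HSPCs.

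Few members of the remaining lists could be tested. Imprinted genes gave 1 of 2 (Inpp5f), germline genes 1 of 3 (Tdrd1) and housekeeping genes 3 of 5 (Rplp0, Rpl13a and Tubb5), with Actb and Gapdh at 0 in all 6 libraries. Across the 25 lists with a tested member, 21 had at least 1 lower window and 24 had a median below 0. The median over all tested windows was −0.21 kb, so these counts are read beside the 22.7% of all tested windows that were lower. After scaling 18 lists had a lower and 7 a higher member.

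**Figure D5:**
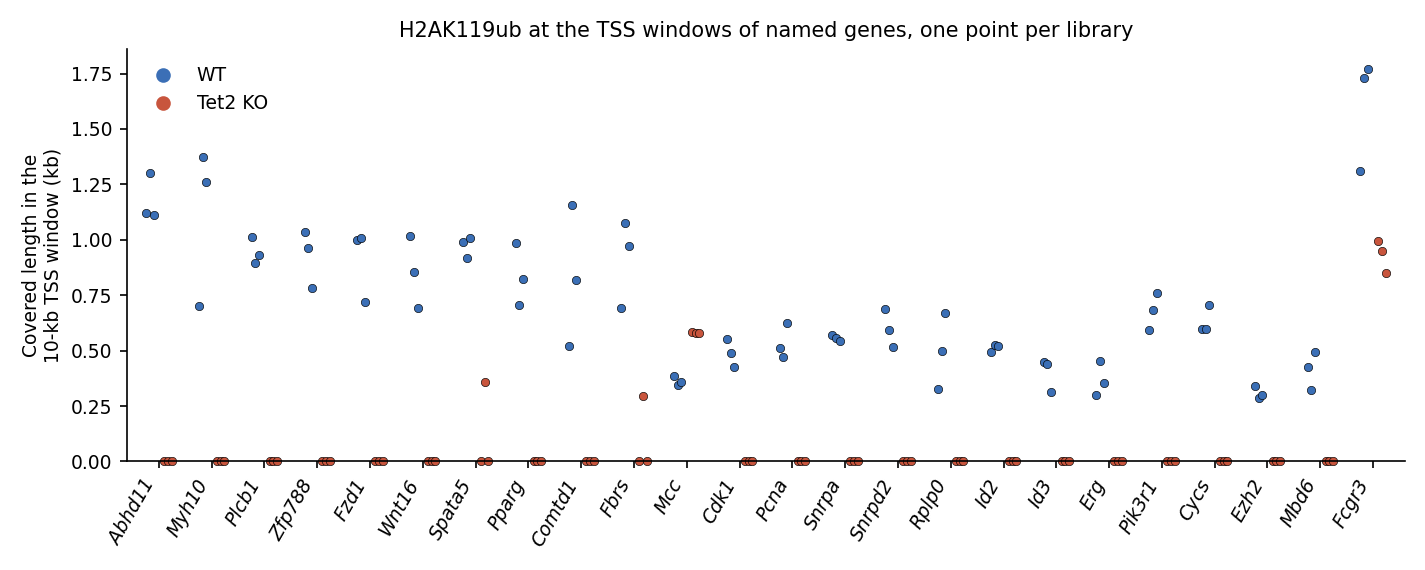
Covered length in the 10-kb TSS window (kb, vertical axis) of named genes (horizontal axis), one point per library. KO libraries lie at 0 for the lower genes shown except Spata5, Fbrs and Fcgr3, 1 KO library is listed at Spata5 and at Fbrs, Fcgr3 keeps 0.849 to 0.996 kb in KO, and Mcc is higher in KO (0.580 to 0.586 kb) than in WT (0.345 to 0.385 kb).

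Windows that stayed listed in KO cells were a small set. There were 208 windows listed in all 3 KO libraries and 197 of them were also in all 3 WT libraries. Limma called 32 of the 208 lower and 1 higher. By KO level the set was led by clustered predicted genes on chromosomes 9, 14, 2 and 4, such as Gm11168 (2.86, 2.95 and 2.85 kb in KO and 3.00, 3.15 and 2.67 kb in WT). Reads from such near-identical copies cannot be placed with certainty. Named genes among the highest were Tmem125 (1.58 ± 0.0304 kb in KO against 1.61 ± 0.0296 kb in WT), Tap2, the peptide transporter of antigen presentation (1.08 ± 0.0964 against 1.19 ± 0.0211 kb), and Thada (0.891 ± 0.104 against 0.961 ± 0.0643 kb). They were chosen after their values were seen.

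Without regard to genes, peaks of the 9 HSPC libraries were merged into regions, and the 6011 regions covered in at least 3 libraries were tested in the same way. In KO cells 1025 were lower (17.1%) and 83 higher (1.38%), and the groups were apart with KO below WT in 23.4% and with KO above WT in 1.9% of tested regions. With the 6 shNC libraries alone 2480 regions were tested, of which 1145 were lower and 91 higher. Scaled to equal covered length 843 were lower and 609 higher, so that lower regions made up 58.1% of calls in place of 92.5%, and with the same number of highest-ranked peaks from every library 129 were lower and 133 higher. The lower regions were promoter-like, with 697 of 1025 within 1 kb of a TSS, a median of 62.2% G and C and 68.1 CpGs per kb. Of the higher regions, 0 of 83 lay within 1 kb of a TSS and 55 lay 50 kb or more away, with a median of 44.6% G and C and 2.04 CpGs per kb. Most of their sequence was repeat-masked in 72 of the 83 (635 of all 6011), 53 were tandemly repeated (981 of all) and 17 had at most 30% G and C (32 of all). Of the 83, 72 were listed at 0 in all WT libraries.

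Among regions over 5 kb from every protein-coding TSS, the 6 largest differences in each direction lay in repeated sequence, with 45.5% to 100% of the 12-base words of a region recurring within it. The largest loss, on chromosome 8 (chr8:116559410-116562188), 54436 bp from Dynlrb2, was covered over 2.56, 2.73 and 2.31 kb in WT and 0.844, 0 and 1.05 kb in KO libraries (limma adjusted p = 0.0163). A region in Nlk, a kinase gene, (chr11:78658293-78659730) carried 1.17, 0.979 and 1.15 kb in WT and 0 in KO libraries (−1.10 ± 0.0630 kb; limma adjusted p = 0.000435). The other 4 lower regions lay in Psen2, Sox5, Eno4 and Foxn3, and each was still listed in at least 2 KO libraries. Those in Psen2, Sox5 and Foxn3 had positive differences that missed the threshold after scaling (limma adjusted p = 0.432, 0.495 and 1). The call on the chromosome 8 region was lost in 4 of 12 alternative settings (limma adjusted p up to 0.578) and that on the Eno4 region in 6 of 12 (up to 0.435).

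The largest gain was in Dph5, a gene of diphthamide synthesis (chr3:115906448-115907534), with 0.910, 1.02 and 0.810 kb in KO and 0 in all WT libraries (limma adjusted p = 0.000435). Under a q filter (−log10 q of at least 5) this call was lost (limma adjusted p = 0.127). The region was also covered in the KO shMbd6 libraries (1.01, 1.08 and 1.00 kb). It lies on chromosome 3, as does Tet2. A difference in repeat sequence inherited along with the knockout cannot be told apart from an effect of TET2 loss on the mark. A region 1333218 bp from Pcdh7, (chr5:59051185-59051692), was covered over 0.491, 0.505 and 0.499 kb in KO and 0 in WT libraries, and one 229459 bp from Tm2d1 (chr4:98153357-98153847) over 0.485, 0.472 and 0.474 kb. The other 3 gains lay 73176 bp from Atp11b, in the predicted gene Gm20388 and 10200 bp from Foxf2, with 0.459 to 0.552 kb in each KO library and 0 in WT.

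Stretches of 240 bases from the centre of 2 of these regions, 1 lower and 1 higher in KO cells, are shown because they make the repeats visible. They are read from the plus strand of GRCm38, with every copy of the most frequent 12-base word in capitals.
Lower, in Nlk, chr11:78658892-78659131: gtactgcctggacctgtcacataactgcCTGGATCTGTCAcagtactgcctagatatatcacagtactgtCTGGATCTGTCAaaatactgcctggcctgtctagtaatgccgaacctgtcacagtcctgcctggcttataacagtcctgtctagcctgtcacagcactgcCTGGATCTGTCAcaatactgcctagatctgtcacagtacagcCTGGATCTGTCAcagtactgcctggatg
Higher, in Dph5, chr3:115906871-115907110: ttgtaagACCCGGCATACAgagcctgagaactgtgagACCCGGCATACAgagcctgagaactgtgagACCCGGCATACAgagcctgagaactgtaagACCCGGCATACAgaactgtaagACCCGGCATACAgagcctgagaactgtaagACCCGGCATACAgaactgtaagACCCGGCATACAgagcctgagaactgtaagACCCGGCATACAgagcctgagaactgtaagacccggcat
The words are CTGGATCTGTCA (4 copies) and ACCCGGCATACA (8 copies). Searched on both strands, they occur in 0.00454% and 0.000826% of the 242103 tiles of 240 bp on chromosome 19. The stretches repeat best at periods of 21 and 30 bp, and hold 1 and 9 CpGs.

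The single higher window, Mcc, carried 0.385, 0.345 and 0.359 kb in WT and 0.586, 0.581 and 0.580 kb in KO libraries (0.22 ± 0.0467 kb, SE; limma adjusted p = 0.00886). Its limma adjusted p was 0.0654 with the same number of highest-ranked peaks from every library, and 0 windows were higher with 2 kb to each side of the TSS in place of 5 kb.

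IAP elements, endogenous retroviruses whose RNA the study measured, were seldom listed in either group. The sites in the reference that match the study's 5 IAP primer pairs exactly number 391 to 1312 per pair, and at most 3 of them carried a peak in any of the 6 libraries. Sites of the MERVL and LINE pairs (623 and 10945) carried none. Each read was reported at a single best position, and reads from near-identical copies cannot be placed with certainty. The lack of peaks at single copies therefore does not show that these elements lack the mark.

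The effect of TET2 loss was set beside that in 2 mESC experiments with the same antibody. In untransfected mESCs the covered length was 13.7 ± 3.55 Mb in WT and 15.1 ± 3.05 Mb in KO cells, and the log2 difference in HSPCs was lower by 1.75 (exact permutation p = 0.025 with labels exchanged within experiments, adjusted p = 0.12 over 16 comparisons). In siNC-treated mESCs it was 14.4 ± 3.79 Mb in WT and 3.47 ± 1.43 Mb in KO cells, and the log2 difference was 0.52 smaller in HSPCs (exact permutation p = 0.705, adjusted p = 0.752). The promoter share went from 31.2 ± 3.36% to 30.9 ± 2.11% in untransfected and from 31.1 ± 2.99% to 22.8 ± 0.951% in siNC-treated mESCs, against 46.5 ± 0.894% to 23.2 ± 1.99% in HSPCs. The repeat-masked share rose in both mESC experiments as in HSPCs. It went from 21.0 ± 1.09% to 27.2 ± 0.642% in untransfected and from 20.6 ± 1.33% to 37.9 ± 2.21% in siNC-treated mESCs. The exact permutation p for the difference from HSPCs was 0.1 and 0.575 (adjusted p = 0.145 and 0.657). CpG density was 42.8 ± 2.99 and 45.3 ± 2.13 per kb in untransfected WT and KO mESCs and 42.0 ± 2.30 and 40.9 ± 0.544 per kb after siNC. Spike-in peaks numbered 54.7 ± 11.2 and 75.3 ± 14.8 in untransfected WT and KO mESCs and 59.7 ± 12.1 and 68.3 ± 20.6 after siNC. None of the 16 comparisons of effects passed after adjustment (adjusted p from 0.12 to 0.795).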

How the data were processed

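H2AK119ub CUT&Tag libraries were trimmed with Trimmomatic 0.39, aligned to mm10 with Bowtie2 2.4.1 and passed to MACS2 by the authors, who deposited broad peaks called per library at a broad cutoff of 0.01. Picard is also named in the submitters' notes. The deposited columns hold a score, a fold enrichment ratio, a −log10 p and a −log10 q for each peak. Reads were not analysed here and depth is unknown, so no counting interval can be given. Peak positions gave the covered length, −log10 q ranked and filtered peaks, and fold enrichment was summarised by its median. Starts and classes followed GENCODE M21 on GRCm38, and repeats the reference's soft-masking. Covered kb was fitted with limma 3.58.1 in R 4.3.3 over 9 libraries in 3 groups, with Benjamini-Hochberg adjustment over all tested windows or regions. Library summaries were compared by exact two-sided permutation tests in Python 3.11.15 with SciPy 1.17.1. Scripts were tested on simulated data.

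Named windows were the 10 largest calls in each direction with groups apart, spaced by 20 kb or more, predicted and clone-named genes excepted, up to 4 called members per list by the size of the statistic, and a fixed set of genes of the study. Named regions were the 6 largest calls each way over 5 kb from a TSS. The members, the 28 lists and the tests were chosen with earlier results of these data known. The sequence classes, the split by strength, the primer sites and the windows listed in all KO libraries were chosen after values were seen. Some items are not reported here.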

Additional observations from a re-analysis of the deposited data

How the results depend on the processing

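The lower and higher windows numbered 964 and 1. They were 249 and 0 among windows covered in at least 1 library of each group, 63 and 10 with the same number of highest-ranked peaks, and 303 lower with −log10 q of at least 5. Higher windows numbered 194 after scaling to equal covered length, 3 with the 6 shNC libraries alone and 0 with 2 kb to each side of the TSS. Leaving out 1 library gave 859 to 1201 lower and 1 to 3 higher windows. Lower and higher regions (1025 and 83) became 144 and 6 with both groups covered, and 129 and 133 with equal peak numbers. There were 312 lower regions with −log10 q of at least 5 and 609 higher regions after scaling. Leaving out 1 library gave 892 to 1235 lower and 78 to 84 higher regions. After scaling, KO minus WT turned positive for Fcgr3 (1.296 kb), Ifngr1 (0.17 kb, limma adjusted p = 0.769) and the regions in Psen2 (1.07 kb), Sox5 (0.66 kb) and Foxn3 (0.10 kb). With equal peak numbers it did so for Rbbp4 (0.13 kb, limma adjusted p = 0.671) and Irx5 (0.14 kb, limma adjusted p = 0.445). With equal peak numbers the KO minus WT log2 difference was −0.000216 in median fold enrichment, 0.57 in masked length and 0.89 in peaks over 50 kb from a TSS, and the last was 0.018364 with −log10 q of at least 5. With that filter the effect on the masked share was 4.45 points smaller in HSPCs than in siNC mESCs (a difference of −4.45). The cause of these changes was not tested. Replicate numbers did not pair the libraries, since same-numbered deviations correlated at −0.0193, −0.0268 and −0.0374. With the replicate number as a block, 923 windows were lower and 1 higher, and 966 regions were lower and 80 higher. For the library summaries the smallest p of the paired test is 0.25. Of 59 named windows that were called, 23 kept their call in each alternative that could test them, 11 to 14 per window, and so did 6 of 12 regions, with 11 to 13 each. The peak lists give no depth, so a listing at 0 does not show that the mark was absent.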
